A study of Mus musculus with 14 samples.

Results

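Glucose uptake and glycolysis were followed through 9 genes, chosen by symbol, of the 23441 genes of the deposited count matrix. They are the glucose transporters Slc2a1 and Slc2a3, the hexokinases Hk2 and Hk3, the glycolytic regulator Pfkfb3, and the enzymes Aldoa, Pgk1, Pkm and Ldha. All 9 passed the filter on low counts, as did 17494 genes in all. A second, shorter gene model also carries the symbol Aldoa (ENSMUSG00000114515.2); it held between 0.384 and 1.65 counts per 1000000 reads on genes (CPM) in the 14 samples and was not counted among the 9.

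RNA was sequenced from marrow plugs of the distal tibia, a site rich in constitutive marrow fat, of male mice on a C57BL6/SJL background at 24 weeks of age, with 2 mice pooled in each of 14 samples. BMAd-Pnpla2+/+ mice gave 4 samples fed ad libitum (AL) and 4 samples after 30% caloric restriction (CR) for 6 weeks, and BMAd-Pnpla2-/- mice gave 3 samples for each diet. Mice of both genotypes carried Osterix-FLPo and the FLPo-activated Adipoq-Cre (FAC) allele, and the genotypes differed by floxed Pnpla2, the gene of adipose triglyceride lipase. Cre therefore acts only in cells with a history of Osterix expression that express Adipoq, which are the bone marrow adipocytes (BMAds) and a small subset of stromal cells, and its cassette lies in the Adipoq gene and lowers adiponectin protein. The RNA is that of the whole plug, so a lower level of a gene in it cannot be told apart between fewer cells of a type and less RNA per cell.

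Glycolysis splits glucose into pyruvate with a net yield of ATP, and most cells of the marrow use it. Glucose enters through transporters of the SLC2A family, hexokinase traps it as glucose 6-phosphate, PFKFB enzymes set the level of the fructose 2,6-bisphosphate that drives phosphofructokinase, and lactate dehydrogenase turns pyruvate into lactate when glycolysis outruns mitochondrial oxidation. Neutrophils and their precursors, which make up much of the marrow, rest largely on glycolysis, whereas fasting tissues commonly turn to fatty acids and hold pyruvate back from oxidation through pyruvate dehydrogenase kinases.

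Between 18898324 and 21665553 read pairs per sample were counted on genes without regard to strand, and these unstranded counts are used throughout unless stated. On the first strand lay 50.2% of stranded gene counts in the 3 BMAd-Pnpla2-/- CR samples on average, whereas the averages of the other 3 groups were 4.42%, 4.46% and 4.51%. The libraries of BMAd-Pnpla2-/- CR mice thus held no strand information, and this property and the group cannot be told apart. Nothing in the sources used here says that samples with the same replicate number belong together, and no 2 libraries of a group were alike within sampling noise. In BMAd-Pnpla2+/+, CR replicate 4 held the least Pnpla2 of its group, at 509 CPM, and AL replicate 1 the most of its group, at 305 CPM. Neither was left out of the main fit. Values without CR replicate 4 are given where it decides a call, as are calls lost without other samples.

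Pnpla2 was read first, as the check of the genotypes. It stood at 305, 176, 202 and 192 CPM in BMAd-Pnpla2+/+ AL samples, at 137, 172 and 133 CPM in AL samples of BMAd-Pnpla2-/-, at 816, 1006, 1029 and 509 CPM in BMAd-Pnpla2+/+ CR, and at 179.6, 222 and 271 CPM in BMAd-Pnpla2-/- CR. The 3 knockout samples of each diet lay below every control sample of that diet. The log2 fold change of knockout over control was -0.57 ± 0.25 (SE) AL with an adjusted p (padj) of 0.99997, and -1.91 ± 0.26 under CR with a padj of 0.0387. The count spans the whole gene in all cells of the plug.

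Under CR, BMAd-Pnpla2+/+ marrow held less RNA of the hexokinase Hk3, the transporter Slc2a3 and the later enzymes Pgk1, Pkm and Ldha, by 23.7% to 39.0%. These 5 of the 9 genes passed a padj under 0.05 in edgeR's quasi-likelihood test, all of them lower, where 10.9% of the 17494 genes tested were called lower and 26.0% were called in either direction. The median log2 fold change of the 9 genes was -0.39, against 0.00 over all genes tested. In BMAd-Pnpla2-/- marrow CR lowered Hk3 and Aldoa, 2 of the 9 genes, where 5.57% of genes were called lower and 11.6% in either direction, and the median of the 9 was -0.28 against 0.05 over all genes. No member passed a padj under 0.05 between genotypes on either diet, and none of the 9 responses to CR was called different between genotypes. No member changed by more than 1 on the log2 scale in any comparison, whereas 9.19% of all genes in BMAd-Pnpla2+/+ and 3.52% in BMAd-Pnpla2-/- were called with a change of that size under CR.

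**Figure D1:**
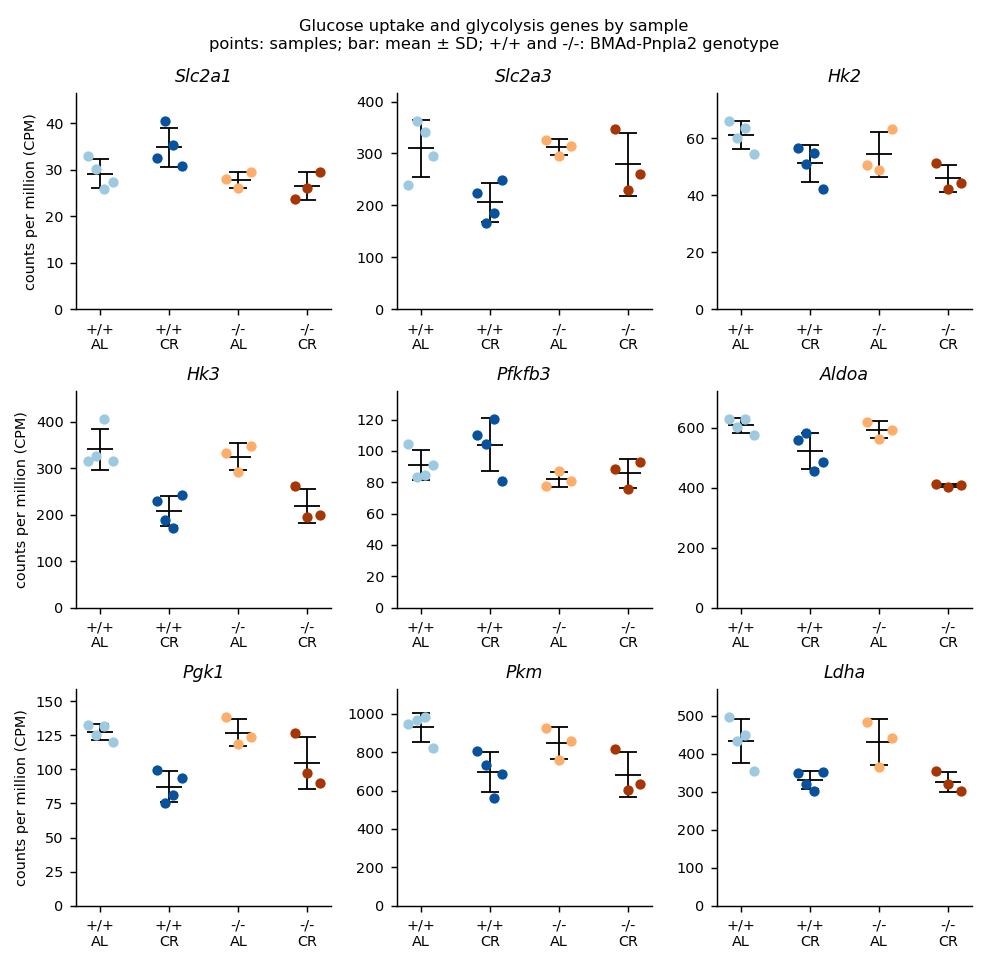
CPM of the 9 genes in every sample, 1 panel per gene, with the 4 groups of genotype and diet on the horizontal axis; points are samples and black bars the mean ± SD of each group. In Hk3 and Pgk1 all 4 BMAd-Pnpla2+/+ CR samples lie below all 4 AL samples, and in Aldoa the 3 BMAd-Pnpla2-/- CR samples lie between 404 and 414 CPM, below all 11 others.

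The upstream sequences of the members that passed the test are shown because these genes were called lower under CR in at least 1 genotype and several are textbook targets of factors that bind E-box and related motifs, among them hypoxia-inducible factor and MYC. The 250 bases before the first-listed RefSeq start of the gene are given (RefSeq, GRCm38.p6), in the direction of transcription, and capitals mark ACGTG or GCGTG on either strand. A promoter was found for 8 of the 9 genes, the exception being Slc2a3.
Hk3, chr13:55021386-55021635, minus strand: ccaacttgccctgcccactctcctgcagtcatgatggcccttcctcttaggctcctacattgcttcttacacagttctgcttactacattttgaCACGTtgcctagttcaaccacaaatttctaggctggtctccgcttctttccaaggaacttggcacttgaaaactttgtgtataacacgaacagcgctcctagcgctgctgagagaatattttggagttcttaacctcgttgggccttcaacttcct
Aldoa, chr7:126800448-126800697, minus strand: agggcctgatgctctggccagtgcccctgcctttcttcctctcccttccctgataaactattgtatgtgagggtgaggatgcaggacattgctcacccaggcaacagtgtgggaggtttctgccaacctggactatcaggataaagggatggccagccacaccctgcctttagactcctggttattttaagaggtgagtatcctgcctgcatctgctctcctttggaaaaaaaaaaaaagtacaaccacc
Pgk1, chrX:106186850-106187099, plus strand: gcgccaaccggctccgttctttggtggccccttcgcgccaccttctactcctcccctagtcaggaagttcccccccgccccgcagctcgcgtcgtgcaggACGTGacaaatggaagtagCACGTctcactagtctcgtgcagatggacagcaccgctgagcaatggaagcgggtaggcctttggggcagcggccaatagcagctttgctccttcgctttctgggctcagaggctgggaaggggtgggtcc
Pkm, chr9:59656326-59656575, plus strand: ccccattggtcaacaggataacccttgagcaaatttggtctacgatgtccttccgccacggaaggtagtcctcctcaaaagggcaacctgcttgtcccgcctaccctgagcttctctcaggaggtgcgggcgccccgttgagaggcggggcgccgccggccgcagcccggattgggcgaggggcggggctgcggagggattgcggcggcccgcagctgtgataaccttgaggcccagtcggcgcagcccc
Ldha, chr7:46845554-46845803, plus strand: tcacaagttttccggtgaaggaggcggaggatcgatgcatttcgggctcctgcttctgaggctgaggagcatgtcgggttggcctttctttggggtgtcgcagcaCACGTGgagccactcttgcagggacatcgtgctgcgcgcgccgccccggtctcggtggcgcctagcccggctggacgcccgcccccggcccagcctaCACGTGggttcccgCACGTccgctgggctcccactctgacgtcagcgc
A match to either motif was present in 6 of the 8 promoters (75.0%), against 53.6% of the first-listed promoters of genes tested and 38.6% of those of all genes in the table. CACGTG counts once on each strand. Ldha held 5 matches, Pgk1, Slc2a1 and Hk2 held 2 each, and Hk3 and Pfkfb3 held 1. Aldoa and Pkm held 0 in this window. For Aldoa 3 promoters are listed, and for Pkm, Ldha and Pfkfb3 2 each, of which only the first-listed was searched. The windows of Aldoa and Ldha lie inside the spans of these genes in GENCODE M21. Those of Pkm, Pfkfb3 and Slc2a1 reach in part into the spans of their genes, so they are not wholly upstream sequence. In the first-listed windows, the members called lower under CR that had a promoter ranged from 0 to 5 matches. Slc2a1 and Hk2, with 2 each, and Pfkfb3, with 1, count among the 6 promoters with a match, but these genes were not called.

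Slc2a1 encodes GLUT1, the basal glucose transporter of many cell types and of red blood cell precursors (chr4:119108711-119137983, plus strand, GRCm38). It stood at 32.9, 30.3, 25.9 and 27.4 CPM in BMAd-Pnpla2+/+ AL samples and at 32.5, 40.5, 35.3 and 30.9 CPM in BMAd-Pnpla2+/+ CR, so the groups overlapped. BMAd-Pnpla2-/- samples held 28.0, 26.1 and 29.5 CPM AL, and 23.6, 26.1 and 29.6 CPM under CR. The log2 fold change with CR was 0.26 ± 0.11 (SE) in BMAd-Pnpla2+/+ (padj 0.102) and -0.08 ± 0.13 in BMAd-Pnpla2-/- (padj 0.745). Under CR the 3 knockout samples lay below the 4 control samples, with a difference of -0.40 ± 0.12 that missed the threshold (padj 0.0974).

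Slc2a3 encodes GLUT3, a transporter of high affinity that is abundant in neurons and in white blood cells (chr6:122727809-122801640, minus strand). Its levels were 240.2, 363, 341 and 295 CPM in BMAd-Pnpla2+/+ AL and 225, 166, 185 and 249 CPM in BMAd-Pnpla2+/+ CR. In 3 of the 4 CR samples the level lay below the lowest AL sample, and the log2 fold change was -0.59 ± 0.16 (padj 0.0196). In BMAd-Pnpla2-/- mice the levels were 326, 295 and 314 CPM AL and 347, 230.5 and 260.3 CPM with CR. Here the highest CR sample lay above all AL samples, and the fold change was -0.16 ± 0.18 (padj 0.608). The CR responses of control and knockout were 0.43 ± 0.24 apart on the log2 scale (padj 0.550), and knockout over control under CR was 0.44 ± 0.17 (padj 0.157). The call in BMAd-Pnpla2+/+ was lost without AL replicate 2, CR replicate 2 or CR replicate 3, with a padj of at most 0.0609.

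The levels of transporters can be compared with each other per length, as CPM per kb of merged exons. In BMAd-Pnpla2+/+ AL marrow Slc2a3 led the family at 42.7 ± 7.49 (SD, n = 4) and made up 48.4% of the 8 transporters summed, whereas Slc2a1 stood at 8.31 ± 0.893 and made up 9.54%. Slc2a10, at 0.623 CPM per kb in these samples, was not among the 8. Slc2a4 encodes GLUT4, the insulin-responsive transporter of fat and muscle, and rose from 11.03 ± 0.910 to 32.3 ± 6.03 CPM per kb with CR, a log2 fold change of 1.55. Slc2a3 fell in the same samples from 42.7 to 28.5 ± 5.15 CPM per kb, where its range of 23.0 to 34.4 overlapped that of Slc2a4, 24.2 to 38.1. In BMAd-Pnpla2-/- CR marrow Slc2a3, at 38.5 ± 8.34, stayed above Slc2a4, at 22.2 ± 3.0, in every sample. The share of Slc2a3 among these transporters under CR was 29.4% ± 6.58 in control and 42.1% ± 7.09 (SD, n = 3) in knockout samples, and the ranges of 23.3% to 38.0% and 36.1% to 49.9% overlapped.

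Of the other 7 SLC2A genes tested, 5 rose and 1 fell with CR in BMAd-Pnpla2+/+ mice, with a median log2 fold change of 0.89, where 2628 of the 17494 genes tested were called higher. The largest rises were those of Slc2a4 at 1.55, of Slc2a12 at 1.27 (padj 0.0406) and of Slc2a13, which encodes a myo-inositol transporter, at 1.06 (padj 0.0218). Slc2a12 lay at 0.460 CPM AL and 1.10 CPM with CR on average and is thus near the lower limit of what was counted. In BMAd-Pnpla2-/- mice, where 1051 genes were called higher, 1 of the 7 rose, Slc2a4 at 1.01 (padj 0.00563), and Slc2a6, a lysosomal transporter of white blood cells, fell by 0.86 on the log2 scale (padj 0.0198). The 8 adipocyte markers, among them the fatty acid binding protein Fabp4 and the lipid droplet protein Plin1, moved with Slc2a4: 8 of 8 rose with CR in BMAd-Pnpla2+/+ and 7 of 8 in BMAd-Pnpla2-/-. Their summed level ranged from 482 to 1082 CPM in BMAd-Pnpla2+/+ AL, 1317 to 3205 in BMAd-Pnpla2+/+ CR, 276 to 592 in BMAd-Pnpla2-/- AL and 905 to 1467 in BMAd-Pnpla2-/- CR. Their part in the rise of Slc2a4 was not tested.

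**Figure D2:**
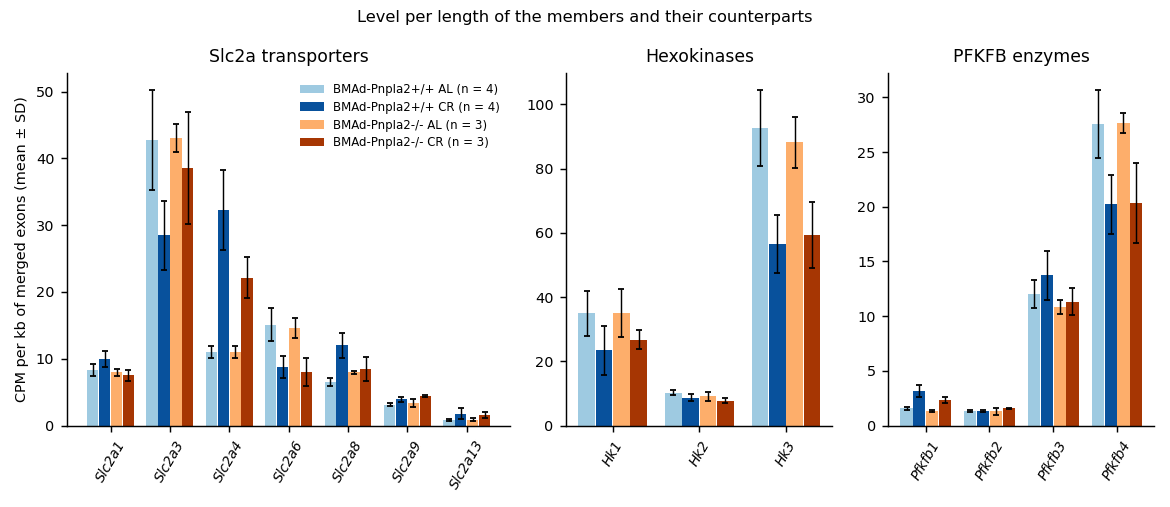
Mean level per length, in CPM per kb of merged exons, of SLC2A transporters, hexokinases and PFKFB enzymes that reach 1 CPM per kb in a group. Slc2a10, which reached 1.16 in BMAd-Pnpla2+/+ CR, is not drawn. Bars are means of 3 or 4 samples per group and error bars the SD. Slc2a3 and Slc2a4 stand at 28.5 and 32.3 in BMAd-Pnpla2+/+ CR, against 42.7 and 11.03 AL, and Hk3 is the highest hexokinase in all 4 groups.

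Hk2 encodes the inducible hexokinase of muscle, fat and dividing cells (chr6:82725025-82774454, minus strand). It stood at 66.1, 60.2, 63.5 and 54.7 CPM in BMAd-Pnpla2+/+ AL and at 56.7, 51.1, 55.0 and 42.3 CPM with CR. In BMAd-Pnpla2-/- the levels were 50.7, 48.9 and 63.4 CPM AL and 51.3, 42.4 and 44.3 CPM with CR. The groups overlapped in both genotypes, and the log2 fold changes of -0.25 ± 0.11 (padj 0.115) and -0.24 ± 0.13 (padj 0.248) missed the threshold.

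Hk3 encodes a hexokinase that is most abundant in neutrophils and other myeloid cells (chr13:55005985-55021385, minus strand), and it was called lower with CR in both genotypes. BMAd-Pnpla2+/+ samples held 316, 328, 406 and 315 CPM AL and 229, 189, 172 and 243 CPM with CR. BMAd-Pnpla2-/- samples held 334, 292 and 349 CPM AL and 261, 195 and 199 CPM with CR. Each CR sample lay below each AL sample of its genotype. The log2 fold change was -0.71 ± 0.14 in BMAd-Pnpla2+/+ (padj 0.00435), a fall of 39.0%, and -0.57 ± 0.16 in BMAd-Pnpla2-/- (padj 0.0338), a fall of 32.8%. The 2 responses differed by 0.14 ± 0.21 (padj 0.821). In BMAd-Pnpla2-/- the fall of Hk3 was within the error of that of Aldoa, at -0.54 ± 0.10, and with the deposited matrix Aldoa, at -0.85, lay below Hk3, at -0.57. In BMAd-Pnpla2+/+ the call held whichever sample was left out, with a padj of at most 0.0155. In BMAd-Pnpla2-/- it was lost without AL replicate 1 or 3 or CR replicate 2 or 3, with a padj of up to 0.130.

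Hk3 was also the highest hexokinase per length, at 92.6 ± 11.9 CPM per kb in BMAd-Pnpla2+/+ AL against 34.9 ± 7.01 of Hk1, the hexokinase found in nearly all cells, and 10.2 ± 0.823 of Hk2. Its share of the 3 summed changed little beside the fall of its level, from 67.2% ± 3.95 to 64.0% ± 1.55 in BMAd-Pnpla2+/+ and from 66.8% ± 2.5 to 63.1% ± 2.97 in BMAd-Pnpla2-/-. The ranges of these shares overlapped between diets in both genotypes. Hk1 changed by -0.57 with CR in BMAd-Pnpla2+/+ and by -0.39 in BMAd-Pnpla2-/-, without passing the threshold (padj 0.0679 and 0.328).

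Pfkfb3 encodes the bifunctional enzyme whose kinase activity prevails, raising fructose 2,6-bisphosphate (chr2:11471433-11554077, minus strand). Its levels were 104, 83.3, 84.8 and 91.0 CPM in BMAd-Pnpla2+/+ AL and 110.4, 104, 120.3 and 80.8 CPM with CR. In BMAd-Pnpla2-/- they were 77.8, 87.3 and 80.9 CPM AL and 88.4, 75.6 and 93.2 CPM with CR. The groups overlapped in both genotypes, and CR replicate 4 of BMAd-Pnpla2+/+ lay below all AL samples. The log2 fold change was 0.19 ± 0.12 in BMAd-Pnpla2+/+ (padj 0.232), 0.30 without replicate 4 (padj 0.0384), and 0.06 ± 0.14 in BMAd-Pnpla2-/- (padj 0.802).

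Of the relatives of Pfkfb3, Pfkfb4 fell and Pfkfb1 rose with CR in BMAd-Pnpla2+/+, and Pfkfb2 stood at 0.02 (padj 0.910). Pfkfb4 was the most abundant per length, at 27.6 ± 3.09 CPM per kb in BMAd-Pnpla2+/+ AL against 12.0 ± 1.27 of Pfkfb3, and it fell with CR by 0.45 on the log2 scale in BMAd-Pnpla2+/+ (padj 0.0190). Pfkfb1, the isoform of liver and muscle, rose by 1.01 in BMAd-Pnpla2+/+ (padj 0.00126) and by 0.82 in BMAd-Pnpla2-/- (padj 0.0126), from a level of 1.58 CPM per kb. The share of Pfkfb3 among the 4 was 28.3% ± 2.36 AL and 35.7% ± 5.07 with CR in BMAd-Pnpla2+/+ samples, with overlapping ranges of 25.0% to 30.4% and 29.0% to 40.6%.

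Aldoa encodes the main aldolase, which splits fructose 1,6-bisphosphate (chr7:126795234-126800751, minus strand). It stood at 628, 602, 629 and 575 CPM in BMAd-Pnpla2+/+ AL and at 560.3, 584, 457 and 485 CPM in BMAd-Pnpla2+/+ CR, where 3 of the 4 CR samples lay below the lowest AL sample. In BMAd-Pnpla2-/- it stood at 621, 564 and 594 CPM AL and at 414, 404 and 408 CPM with CR, and these groups were far apart. The log2 fold change with CR was -0.22 ± 0.09 in BMAd-Pnpla2+/+ (padj 0.0835) and -0.54 ± 0.10 in BMAd-Pnpla2-/- (padj 0.0108). With single samples left out, the value in BMAd-Pnpla2+/+ ranged from -0.31 to -0.16 and its padj from 0.0380 to 0.206. Whether Aldoa was called lower there thus depended on the sample left out. The responses differed by -0.32 ± 0.14, which did not pass the threshold (padj 0.460). The call in BMAd-Pnpla2-/- was lost without CR replicate 3 (padj 0.0514). Aldoa made up 99.2% to 99.7% of the level per length of Aldoa and Aldoc together.

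Pgk1 encodes phosphoglycerate kinase, the first step of glycolysis that yields ATP (chrX:106187100-106203699, plus strand). BMAd-Pnpla2+/+ samples held 133, 125, 132 and 119.7 CPM AL and 99.9, 75.2, 80.8 and 93.5 CPM with CR, without overlap. BMAd-Pnpla2-/- samples held 138, 119 and 124 CPM AL and 127, 97.5 and 89.9 CPM with CR, and these groups overlapped through CR replicate 1. The log2 fold change was -0.54 ± 0.12 in BMAd-Pnpla2+/+ (padj 0.00651), with the call kept whichever sample was left out, and -0.28 ± 0.13 in BMAd-Pnpla2-/- (padj 0.182). The difference of the responses was 0.27 ± 0.18 (padj 0.595).

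Pkm encodes the pyruvate kinase of most tissues, which makes the last ATP of the pathway (chr9:59656368-59679375, plus strand). Its levels were 950.0, 969, 983 and 820.4 CPM in BMAd-Pnpla2+/+ AL and 805, 732, 559 and 687 CPM with CR. They were 924, 762 and 861 CPM in BMAd-Pnpla2-/- AL and 816, 602 and 633 CPM with CR. In BMAd-Pnpla2+/+ the groups were separate, narrowly so between 805 and 820.4 CPM, and the log2 fold change was -0.42 ± 0.13 (padj 0.0331). In BMAd-Pnpla2-/- it was -0.31 ± 0.15 (padj 0.191). The call was lost when AL replicate 1, 2 or 3 or CR replicate 2 or 3 was left out, with a padj of at most 0.0919. The counts do not separate the M1 and M2 splice forms of this gene, and 15.3% of its merged exon length is shared with an overlapping model of the same strand, Gm49759.

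Ldha encodes the lactate dehydrogenase subunit that favors lactate formation (chr7:46841475-46855627, plus strand). It stood at 497, 433, 451 and 356 CPM in BMAd-Pnpla2+/+ AL and at 348, 321, 303 and 353 CPM with CR. In BMAd-Pnpla2-/- it stood at 485, 367 and 441 CPM AL and at 354, 321 and 302 CPM with CR. CR samples lay below AL samples in both genotypes, narrowly so in BMAd-Pnpla2+/+, where the nearest values were 353 and 356 CPM. The log2 fold changes were -0.39 ± 0.12 (padj 0.0271) and -0.40 ± 0.13 (padj 0.0639), and their difference was -0.01 ± 0.18 (padj 0.983). The call in BMAd-Pnpla2+/+ was lost without AL replicate 1 or 2 or CR replicate 2 or 3, with a padj of up to 0.0762.

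**Figure D3:**
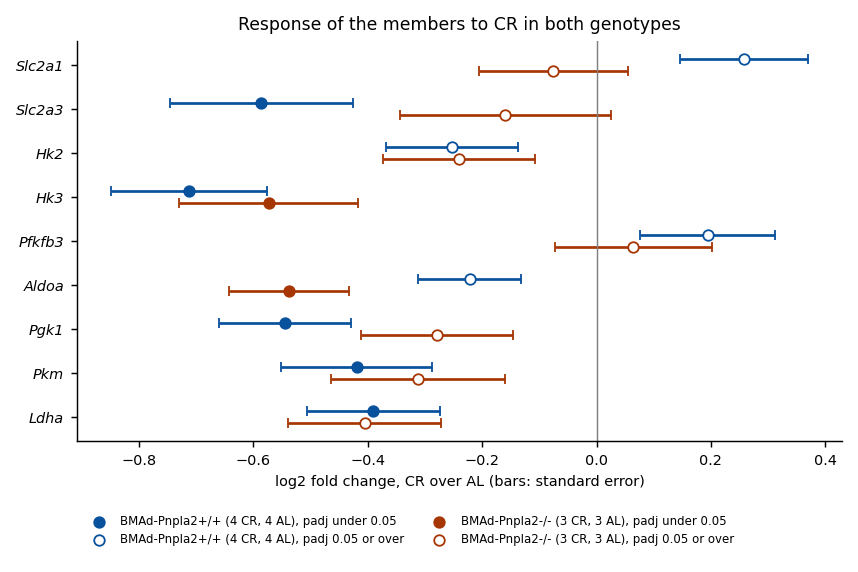
Log2 fold change of CR over AL for each of the 9 genes in BMAd-Pnpla2+/+ (blue, 4 and 4 samples) and BMAd-Pnpla2-/- mice (brown, 3 and 3 samples), with bars of 1 standard error; filled points have a padj under 0.05. Slc2a3, Hk2, Hk3, Aldoa, Pgk1, Pkm and Ldha lie below 0 in both genotypes; Pfkfb3 lies above 0 in both and Slc2a1 in BMAd-Pnpla2+/+ alone, none of these 3 values being called.

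Groups that did not overlap under CR in BMAd-Pnpla2+/+ mice were found for 4 of the 9 genes, Hk3, Pgk1, Pkm and Ldha, all with lower levels in CR, where 10.4% of genes tested were separate in that direction. In BMAd-Pnpla2-/- mice they were found for 3, Hk3, Aldoa and Ldha, where the share was 17.4%. The order of the 9 genes by level per length in BMAd-Pnpla2+/+ AL was Aldoa (209 ± 8.83 CPM per kb), Pkm (186 ± 14.9), Ldha (131 ± 17.7), Hk3 (92.6), Pgk1 (56.8 ± 2.72), Slc2a3 (42.7), Pfkfb3 (12.0), Hk2 (10.2) and Slc2a1 (8.31). Neighbours whose samples overlapped were Ldha and Hk3, Pfkfb3 and Hk2, and Hk2 and Slc2a1. Per kb of coding sequence in place of merged exons, Pkm at 584 CPM per kb stood above Aldoa at 485, and Slc2a3 at 209 stood above Hk3 at 123.

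Genotype alone made no difference to the 9 genes that was called. In mice fed AL the log2 fold changes of knockout over control ranged from -0.17 for Hk2 to 0.01 for Slc2a3, the smallest padj was 0.99997, and 0 of the 9 had an unadjusted p under 0.05. In this comparison 0 of all 17494 genes (0.00%) were called by edgeR, 694 (3.97%) had an unadjusted p under 0.05, and DESeq2 called 19 genes, none of them among the 9. The SE of the 9 log2 fold changes was 0.17 at most.

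Under CR the log2 fold changes of knockout over control ranged from -0.40 for Slc2a1 to 0.44 for Slc2a3. None of the 9 was called by edgeR, where 3 genes were called in all (0.0171%) and 4052 (23.2%) had an unadjusted p under 0.05. Of the 9, Slc2a1, Slc2a3, Pfkfb3 and Aldoa had an unadjusted p under 0.05. Aldoa was lower by 0.35 ± 0.10 on the log2 scale, with a padj of 0.0832, and the 3 knockout samples, at 404 to 414 CPM, lay below the 4 control samples, at 457 to 584 CPM. Slc2a1 and Aldoa were the 2 genes of the 9 whose groups did not overlap, both lower in the knockout, where 8.11% of genes were separate in that direction. DESeq2 called both genes, with a padj of 0.0262 for Slc2a1 and 0.00613 for Aldoa, and it called 1403 genes in all. Without BMAd-Pnpla2+/+ CR replicate 4, edgeR called Slc2a1 (padj 0.0381), Pfkfb3 (padj 0.0416) and Aldoa (padj 0.0365), and without CR replicate 3 it called Aldoa (padj 0.0471). Over all genes the calls rose from 3 to 2092 of 17441 without CR replicate 4 and to 256 of 17362 without CR replicate 3.

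These 2 genes also depended on how reads were counted. The deposited matrix mixes reverse-strand counts, in 11 samples, with unstranded counts, in the 3 BMAd-Pnpla2-/- CR samples. Exons of Aldoa and of Fam57b on the opposite strand share 25 bases, and those of Slc2a1 and the antisense gene Gm12868 share 105. Counted without strand, Aldoa lost 16.9% to 20.7% of the reads given to it on the 2 strands together in the 11 stranded samples and 13.8% to 16.2% in the 3 others. Slc2a1 lost 8.95% to 12.3% in the 11 and 9.41% to 12.2% in the 3. With the deposited matrix the difference between genotypes under CR was -0.61 ± 0.10 for Aldoa (padj 0.00115) and -0.53 ± 0.12 for Slc2a1 (padj 0.00832), and 2451 genes were called in all. With the sum of both strands it was -0.44 ± 0.10 (padj 0.0621) and -0.46 ± 0.13 (padj 0.0742). The response of Aldoa to CR differed between genotypes by -0.56 ± 0.14 (padj 0.0433) with the deposited matrix and by -0.32 with unstranded counts.

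**Figure D4:**
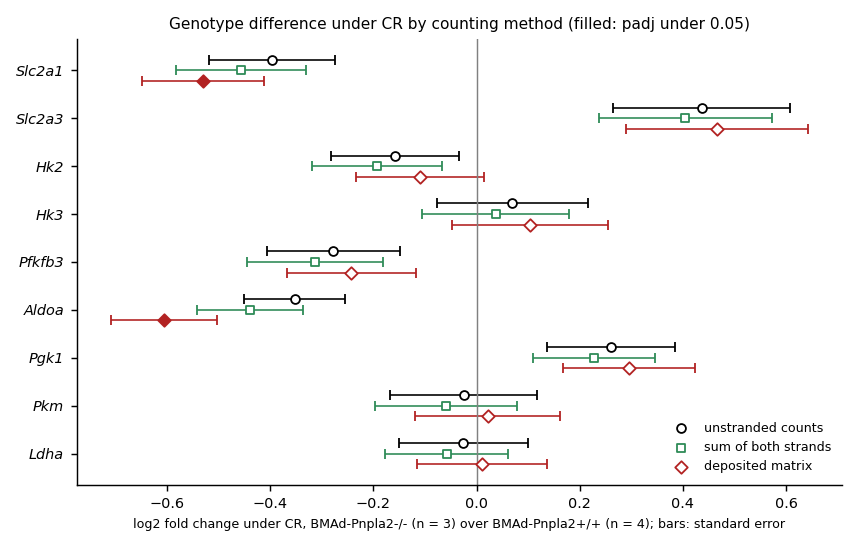
Log2 fold change of BMAd-Pnpla2-/- (3 samples) over BMAd-Pnpla2+/+ (4 samples) under CR for each of the 9 genes, by 3 ways of counting reads, with bars of 1 standard error; filled points have a padj under 0.05. Aldoa moves from -0.35 with unstranded counts to -0.61 with the deposited matrix and Slc2a1 from -0.40 to -0.53, while the other 7 genes stay uncalled.

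The rest of the pathway was read from fixed lists. Tpi1, Ldhb and Hkdc1 of the glycolysis list were not found by symbol among the genes of the matrix, so their expression was not read. The same was true of Myc among the regulators of glucose use and of Vegfa among the hypoxia targets below. Of 19 other glycolysis enzymes tested, 2 fell and 1 rose with CR in BMAd-Pnpla2+/+ mice, with a median log2 fold change of -0.21, and 2 fell and 1 rose in BMAd-Pnpla2-/- mice, with a median of -0.03. Over all genes tested, 10.9% were called lower and 2628 of 17494 higher in BMAd-Pnpla2+/+, and 5.57% lower and 1051 of 17494 higher in BMAd-Pnpla2-/-. The share of the other glycolysis enzymes called lower in BMAd-Pnpla2+/+ was thus near that of all genes. Eno1, the enolase next to last in the pathway, fell in both, by 0.43 (padj 0.0217) and by 0.60 (padj 0.0198) on the log2 scale. Gapdh, the dehydrogenase that precedes phosphoglycerate kinase, fell by 0.70 in BMAd-Pnpla2-/- (padj 0.0336) and stood at -0.38 in BMAd-Pnpla2+/+ (padj 0.0995). The phosphofructokinase subunits Pfkl and Pfkp stood at -0.21 (padj 0.143) and -0.07 (padj 0.545) in BMAd-Pnpla2+/+, and the red cell pyruvate kinase Pklr stood at -1.10 (padj 0.0783).

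The pentose phosphate pathway, which draws on glucose 6-phosphate to make NADPH and ribose, was read next. With CR, 7 of its 9 genes fell in BMAd-Pnpla2+/+, where 10.9% of all genes were called lower, and 4 of 9 in BMAd-Pnpla2-/-, where 5.57% were, with medians of -0.42 and -0.52. H6pd and Tigar, the genes not called in BMAd-Pnpla2+/+, lay above 0 in both genotypes. The largest changes in BMAd-Pnpla2+/+ were those of Pgls at -0.86 (padj 0.00232), Rpia at -0.79 (padj 0.00387) and Taldo1 at -0.63 (padj 0.0113). In BMAd-Pnpla2-/- they were those of Pgls at -1.13 (padj 0.00475), Tkt at -0.64 (padj 0.0126) and G6pdx, the entry enzyme, at -0.58 (padj 0.0142).

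Of 14 genes that govern the fate of pyruvate in mitochondria, 7 rose, 0 fell and 7 were not called with CR in BMAd-Pnpla2+/+, where 2628 of all 17494 genes were called higher. In BMAd-Pnpla2-/-, 4 rose, 0 fell and 10 were not called, where 1051 of 17494 were called higher. Pdk4, the kinase that shuts off pyruvate dehydrogenase in fasting, rose by 2.38 in BMAd-Pnpla2+/+ (padj 0.00449) and by 2.12 in BMAd-Pnpla2-/- (padj 0.0234). Pcx, pyruvate carboxylase, rose by 1.43 (padj 0.00389) and stood at 0.83 in the knockout (padj 0.0888), and Pdk2 rose by 0.76 (padj 0.00805) in BMAd-Pnpla2+/+. In BMAd-Pnpla2-/- the next largest rises were those of Pdp1, a phosphatase that activates pyruvate dehydrogenase, at 0.56 (padj 0.0199), and of Dld, a subunit of the dehydrogenase complex, at 0.50 (padj 0.0125). Pdp1 was also called higher in BMAd-Pnpla2+/+, at 0.41 (padj 0.0228). Pdk1 was called higher in BMAd-Pnpla2+/+, at 0.40 (padj 0.00934), and in BMAd-Pnpla2-/-, at 0.43 (padj 0.0243). In glycogen metabolism 2 of 10 genes rose in BMAd-Pnpla2+/+, against the same 2628 of 17494, Pgm1 by 0.60 (padj 0.0147) and Gbe1 by 0.57 (padj 0.00707), and 0 of 10 were called in BMAd-Pnpla2-/-.

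**Figure D5:**
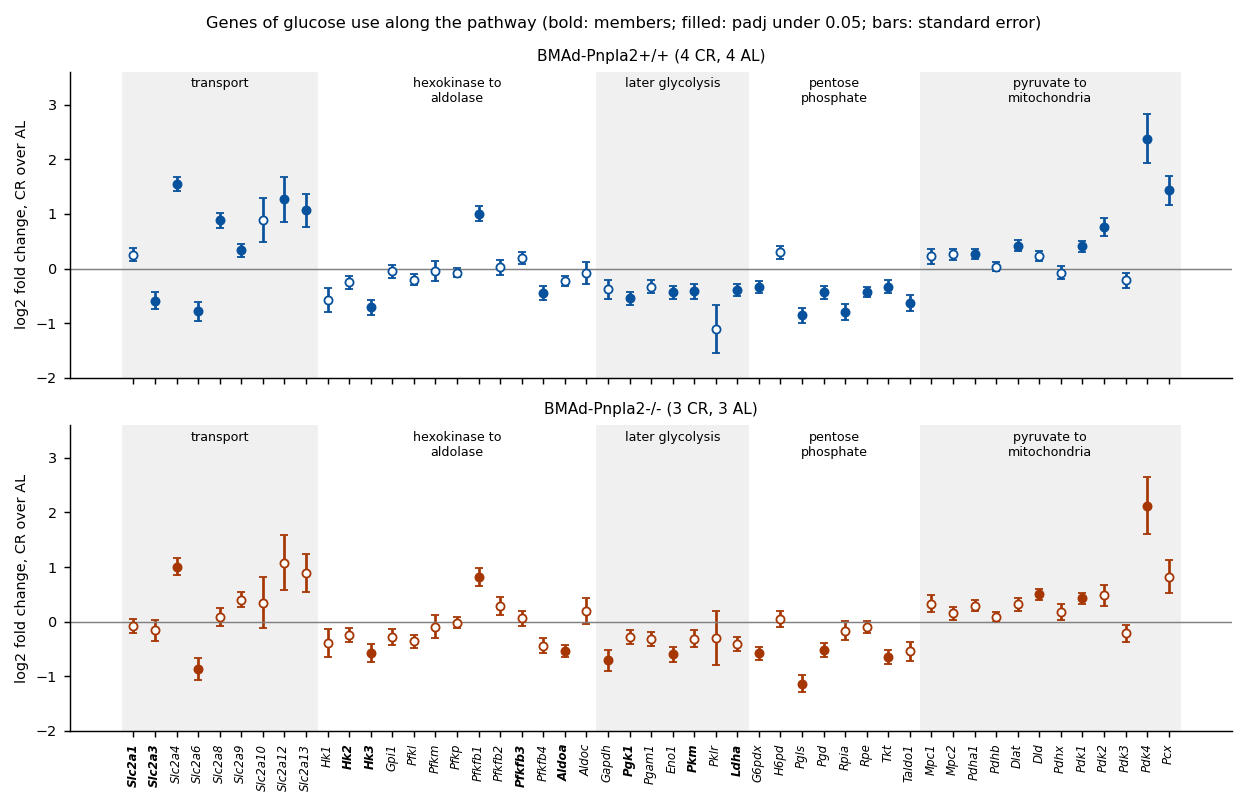
Log2 fold change of CR over AL, with bars of 1 standard error, for genes of glucose transport, glycolysis, the pentose phosphate pathway and pyruvate entry to mitochondria, with BMAd-Pnpla2+/+ above and BMAd-Pnpla2-/- below; members are in bold and filled points have a padj under 0.05. Slc2a4, Pfkfb1, Pdk1 and Pdk4 are filled and above 0 in both genotypes, and Slc2a6, Hk3, Eno1, Pgls, Pgd, G6pdx and Tkt are filled and below 0 in both.

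Regulators of glucose use and hypoxia targets outside glycolysis were read for comparison. Of 15 regulators tested, 5 rose and 1 fell in BMAd-Pnpla2+/+ and 2 rose in BMAd-Pnpla2-/-, where 2628 and 1051 of all 17494 genes were called higher. Mlxipl, which encodes the glucose-sensing factor ChREBP, rose by 2.36 (padj 0.00481) and 2.06 (padj 0.0296), Epas1, which encodes HIF-2α, rose by 1.03 in BMAd-Pnpla2+/+ (padj 0.00956), and Txnip, an inhibitor of glucose uptake, rose by 0.89 (padj 0.00481) and 0.84 (padj 0.0212). Of 13 hypoxia targets tested, 4 rose in BMAd-Pnpla2+/+ and 2 in BMAd-Pnpla2-/-, with medians of 0.12 and 0.25, and the other 9 and 11 were not called. Ddit4, an inhibitor of mTORC1, rose by 2.14 (padj 0.000521) and 2.08 (padj 0.00475), Adm by 1.47 in BMAd-Pnpla2+/+ (padj 0.00403), and Bnip3 by 1.41 (padj 0.0049) and 1.44 (padj 0.0169).

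Markers of marrow cells were read beside the members. Of 16 neutrophil markers, 10 fell with CR in BMAd-Pnpla2+/+, where 10.9% of all genes were called lower, and 2 in BMAd-Pnpla2-/-, where 5.57% were. The medians of these markers were -0.60 and -0.44. Their summed level ranged from 33426 to 43348 CPM in BMAd-Pnpla2+/+ AL, 18371 to 31152 in BMAd-Pnpla2+/+ CR, 36492 to 37807 in BMAd-Pnpla2-/- AL and 22781 to 35775 in BMAd-Pnpla2-/- CR, and no marker was at 0. Ngp, a granule protein, stood at -0.41 (padj 0.20) in BMAd-Pnpla2+/+, and S100a9, a calcium-binding protein of the cytosol, fell by 1.07 (padj 0.0109). Of 6 proliferation markers 3 fell and of 5 megakaryocyte markers 4 fell in BMAd-Pnpla2+/+, and 0 of either were called in BMAd-Pnpla2-/-. Of the 9 erythroid markers 0 were called with CR in either genotype. Their summed level ranged from 18521.5 to 34097.5 CPM in BMAd-Pnpla2+/+ AL and from 10731 to 51913 CPM in BMAd-Pnpla2+/+ CR. It ranged from 38471 to 49697 CPM in BMAd-Pnpla2-/- AL and from 30622 to 52401 CPM in BMAd-Pnpla2-/- CR. For knockout over control under CR their median log2 fold change was 0.76, with a range of 0.11 to 1.42. In that comparison 3 of the 9 had an unadjusted p under 0.05 in edgeR's test and 0 were called. The part of these cells in the fall of Hk3, Slc2a3, Pgk1, Pkm and Ldha was not tested.

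Skeletal muscle markers, which would show tissue beside the bone and whose cells are rich in Aldoa, Pkm and Ldha, were also read. Their summed level ranged from 12.6 to 34.4 CPM in BMAd-Pnpla2+/+ AL, 10.6 to 20.8 in BMAd-Pnpla2+/+ CR, 15.5 to 18.4 in BMAd-Pnpla2-/- AL and 12.8 to 148 in BMAd-Pnpla2-/- CR, and 0 of the 6 tested were called with CR in either genotype. Their median log2 fold change with CR was -0.37 in BMAd-Pnpla2+/+, with 0 of 6 at an unadjusted p under 0.05, and 1.77 in BMAd-Pnpla2-/-, with 5 of 6. For knockout over control under CR it was 1.71, again with 5 of 6. The 3 samples of BMAd-Pnpla2-/- CR differed widely in this sum, with a median of 44.2 CPM. The part of muscle tissue in the values of Aldoa, Pkm and Ldha was not tested. With CR in BMAd-Pnpla2+/+, 2 monocyte and macrophage markers of 11 rose and 2 fell, 1 B cell marker of 8 fell, 3 osteoblast and osteocyte markers of 7 rose, and 4 stromal and endothelial markers of 7 rose. In BMAd-Pnpla2-/- 1 monocyte and macrophage marker and 1 B cell marker fell, and 1 osteoblast and osteocyte marker and 1 stromal and endothelial marker rose. Among all 17494 genes, 2628 were called higher and 10.9% lower in BMAd-Pnpla2+/+, against 1051 and 5.57% in BMAd-Pnpla2-/-.

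The genes whose pattern over the 14 samples lay nearest to each member were found among the 12917 genes that averaged 50 counts or more, as the root mean square difference of log2 CPM after each gene was centred on its own mean. For Pkm it was Pgam1, the glycolytic phosphoglycerate mutase, at 0.07, and for Pgk1 it was Ppia, cyclophilin A, at 0.09. For Hk3 it was Rab44 at 0.09 and for Ldha it was Csf2rb, the shared subunit of the receptors of interleukin 3, interleukin 5 and GM-CSF, at 0.09. Slc2a3 lay nearest to Hacd4 (0.09), Slc2a1 to Dync1h1 (0.08), Hk2 to Borcs8 (0.10), Pfkfb3 to Phyh (0.09) and Aldoa to Csnk1g2 (0.06). Among the members themselves the nearest pair was Pkm and Ldha at 0.12, and Ldha ranked 63 among the genes nearest to Pkm. The median difference of all genes from a member was between 0.32 and 0.43.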

How the data were processed

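The authors sequenced mRNA as paired reads and aligned them with STAR, and they deposited raw gene counts of each of the 14 samples in unstranded, first-strand and reverse-strand form, together with a matrix of raw counts of 23441 genes. The submitters' processing notes also name FastQC 0.11.9 and DESeq2. Reads that map to several places were not counted. Here the unstranded counts of the matrix's genes were used as the same measure in every library. Genes are named by Ensembl identifier and symbol, with positions from GENCODE M21 (GRCm38).

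Libraries were scaled by TMM, genes filtered by filterByExpr (17494 kept), and 1 robust quasi-likelihood model of the 4 groups fitted in edgeR 4.0.16 (R 4.3.3), with two-sided tests and Benjamini-Hochberg adjustment over all genes tested. A gene was called at a padj under 0.05. The SE is the log2 fold change over the square root of F. DESeq2 1.42.0, other scalings, filters and counts, a replicate block and the leaving out of each sample were alternatives. On simulated counts for the BMAd-Pnpla2+/+ comparison, in which 200 of 17095 genes changed by 1 on the log2 scale, edgeR found 200 with 13 false calls and DESeq2 found 199 with 21. The simulation gave every gene the same fixed dispersion and changed only genes above a count floor. It therefore checks that the code runs correctly and cannot show how often changes as small as those of the members are found or falsely called.

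The members, lists and rules were chosen with earlier results of these data known. All 9 members, Pnpla2 and fixed isoform counterparts are named, though Ldhb had no values to give. So are up to 3 called genes of each glucose list by size of change. The 2 highest genes of some marker lists and the gene nearest in pattern to each member are named as well. Each sample pools marrow of 2 mice, and the sources used here do not tie replicate numbers across groups. Same-numbered samples did not deviate together (19 pairs, r from -0.37 to 0.33, median 0.02), so the numbers were not taken as pairs. P-values set the difference between group means against the spread between these pooled samples, which was estimated over the 4 groups together and moderated across genes. Counting error is small at these depths.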

Additional observations from a re-analysis of the deposited data

Results flagged for a closer look

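In 1 of 18 sets of 4 samples tested, made of the 9 genes in each of the 2 BMAd-Pnpla2+/+ groups, a sample lay far from the other 3 by Dixon's criterion. Hk3 stood at 406 CPM in BMAd-Pnpla2+/+ AL replicate 3, whereas the other 3 samples held between 315 and 328 CPM. Chance gives such a distance in about 1 in 20 sets. Without that sample the log2 fold change of Hk3 with CR in BMAd-Pnpla2+/+ was -0.65, with a padj of 0.0149.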

How the results depend on the processing

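With the study's added criterion of an absolute log2 fold change over 1, 0 of the 9 genes were called in either genotype under CR. With a fit of the compared groups alone, 3 were called in BMAd-Pnpla2+/+, Pkm (padj 0.0594) and Ldha (padj 0.0539) being lost. Between genotypes under CR, 2 were called by DESeq2 and 2 with the deposited matrix, Slc2a1 and Aldoa each time, and the difference of the responses had 1 call, Aldoa, with the deposited matrix. When single samples were left out, the calls ranged from 2 to 6 in BMAd-Pnpla2+/+ and from 0 to 3 in BMAd-Pnpla2-/- under CR, and from 0 to 3 between genotypes under CR. They fell to 2 without BMAd-Pnpla2+/+ AL replicate 2, CR replicate 2 or CR replicate 3, to 3 without AL replicate 1, and in BMAd-Pnpla2-/- to 1 without AL replicate 1, AL replicate 3 or CR replicate 2 and to 0 without CR replicate 3. Ldha in BMAd-Pnpla2-/- mice was called under 7 of 17 alternatives. The replicate block, which the data did not call for, left 5 members called in BMAd-Pnpla2+/+, 2 in BMAd-Pnpla2-/- and 0 in the other comparisons, and changed no call of a member.

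Values near 0 that were not called changed sign under some settings, and the cause was not tested. For CR in BMAd-Pnpla2-/-, Slc2a1 went to 0.0022 on the log2 scale with library totals alone. For knockout over control AL, Slc2a3 went to -0.0088 with library totals alone, Pgk1 to 0.00039 without a filter, 0.0011 with the compared groups alone and 0.0026 with reverse-strand counts, and Ldha to 0.00022 with reverse-strand counts. Under CR, Pkm went to 0.022 and Ldha to 0.011 with the deposited matrix. The difference of the responses of Hk2 went to -0.015 with DESeq2 size factors, -0.016 with DESeq2, -0.041 without a filter and -0.027 with the sum of both strands, an alternative chosen after seeing the data, and that of Ldha to 0.012 with library totals and 0.025 with the deposited matrix.

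With single samples left out, sign changes came within these ranges. CR in BMAd-Pnpla2-/- gave -0.018 to 0.14 for Pfkfb3. Knockout over control AL gave -0.11 to 0.00059 for Slc2a1, -0.093 to 0.095 for Slc2a3, -0.13 to 0.030 for Hk3, -0.069 to 0.042 for Pgk1 and -0.10 to 0.095 for Ldha, and under CR -0.082 to 0.15 for Hk3, -0.17 to 0.059 for Pkm and -0.093 to 0.026 for Ldha. The difference of the responses gave -0.077 to 0.15 for Hk2, -0.014 to 0.22 for Hk3, -0.043 to 0.19 for Pkm and -0.12 to 0.079 for Ldha.

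Over all genes, the calls between genotypes under CR numbered 3 by edgeR and 1403 by DESeq2, 8 with library totals alone, 2451 with the deposited matrix, 2 with the replicate block, without the robust fit or with all genes of the per-sample tables, which was added after seeing the data, and 0 with the compared groups alone or the sum of both strands. The difference of the responses had 0 calls by edgeR, 45 by DESeq2 and 678 with the deposited matrix. CR in BMAd-Pnpla2-/- had 2025 calls, with 3098 by DESeq2 and 3898 with the deposited matrix, and CR in BMAd-Pnpla2+/+ had 4543, with 2689 in a fit of the compared groups alone. Reverse-strand counts could not serve the comparisons with BMAd-Pnpla2-/- CR. With single samples left out, CR in BMAd-Pnpla2+/+ had 3005, 2866, 2650 and 2200 calls without AL replicate 2, AL replicate 3, CR replicate 2 and CR replicate 3, and CR in BMAd-Pnpla2-/- had 443, 510, 817 and 248 without AL replicate 1, AL replicate 3, CR replicate 2 and CR replicate 3. Between genotypes under CR there were 2092 without BMAd-Pnpla2+/+ CR replicate 4, 256 without CR replicate 3, 2 without CR replicate 2, 1 without CR replicate 1 and 0 without any 1 of the BMAd-Pnpla2-/- CR samples.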
